A study of Mus musculus with 11 samples.

Results

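Whole ovaries of 18 month old wild-type mice were compared with whole ovaries of 2 month old wild-type mice by bulk RNA sequencing. The comparison used 8 of the 11 libraries of the series, 4 at each age, chosen by the age in the sample labels. The library names of the younger group give that age in weeks. The other 3 libraries, labelled 24 month, carry a lower number of months in their library names. These 3 were not compared but were fitted in the same model. They therefore enter the gene filter, the scaling, each SE and each p-value. All mice were labelled WT, the tissue was ovary in every sample, and no treatment was given. Whether each sample was a different animal, and the stage of its estrous cycle, are not in the labels, so a p-value here sets a difference against sample-to-sample spread only, which may be technical. At 18 months, replicates 3 and 4 differed by little more than sampling noise, with a chi-square of 1.10 per gene over 17173 genes. The next pair within either age gave 28.7. Replicates 3 and 4 were therefore summed and counted as 1 sample, so that 4 samples at 2 months stood against 3 at 18 months. Total counts were 28523685 to 33407509 at 2 months, 29482389 and 32022325 for 18 month replicates 1 and 2, and 14124639 for the summed sample, whose values of scarce genes carry more counting error.

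The ovary holds follicles, each an oocyte wrapped in dividing granulosa cells, inside a stroma of fibroblast-like cells, steroid-making theca and luteal cells, vessels and immune cells, under a single-layered surface epithelium. Follicles are used up with age and are not replaced, while the stroma is known to gather immune cells and fibrous matrix. RNA of a whole ovary is a mixture of all these cells, and in such bulk samples fewer cells of a type and less RNA per cell cannot be told apart.

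Marker lists of cell types were therefore read in the same fit, where a gene was called at an edgeR adjusted p below 0.05. Among all genes tested 6.04% were called higher and 5.51% lower. Of the oocyte markers 23 of 24 were called lower, with a summed level of 348 to 827 CPM (counts scaled to library size and by TMM factors) at 2 months and 46.3 to 99.4 CPM at 18 months. Of the granulosa markers 4 of 17 were called lower and 1 higher (6585 to 7950 against 3935 to 6233 CPM), and none of 12 theca and luteal markers was called (35241 to 78572 against 26096 to 50241 CPM). Higher calls were made for 10 of 12 macrophage markers (261 to 338 against 580 to 759 CPM), 5 of 14 lymphocyte markers (7.31 to 19.2 against 38.5 to 89.3 CPM) and 8 of 11 markers of the surface epithelium and mesothelium (200.3 to 265 against 395 to 1040.1 CPM). Within the 18 month samples the epithelial sum was 395 CPM in replicate 1, 1040.1 CPM in replicate 2 and 610.2 CPM in the summed sample, and the sum of 9 oviduct and ciliated cell markers, of which only Pax8 was called, was 14.9, 85.7 and 61.8 CPM in the same order. The adipocyte sum was 14.5 to 28.9 CPM at 2 months and 93.6 to 124 CPM at 18 months. Of its 5 tested members Fabp4 and Car3 were called higher and 1 was fitted below 0. Cidec, Lep and Retn were too low to be tested. Among the 2 month samples, replicate 3 was the lowest for the oocyte and granulosa sums and the highest for the theca and luteal sum.

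Of 20331 genes tested, 2349 were called, which is 11.6% of them. The age groups did not overlap in 27.3% of the genes tested. They did not overlap in 2298 of the 2349 called genes, so lack of overlap adds little to a call. Higher levels at 18 months were called for 1228 genes (6.04%) and lower levels for 1121 (5.51%), and the fold change was at least 2-fold for 925 and 583 of these. With library totals as the only scaling the split was 1326 higher and 662 lower, and the median log2 fold change of all genes moved from 0.01 to 0.10. The number of calls rested on single samples: it was 375 without the summed 18 month sample, 382 without 2 month replicate 1, 614, 687 and 730 without 2 month replicate 2, 2 month replicate 4 and 18 month replicate 2, 1980 without 18 month replicate 1, and 2503 without 2 month replicate 3. Of 121 genes named by rule, 116 were called, and 39 of these were called in every alternative fit that was run.

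Among the 39 were genes of several functions with the smallest adjusted p. Nfasc, which encodes the adhesion protein neurofascin, was at 1.07, 1.37, 1.14 and 1.86 CPM at 2 months and 16, 12.9 and 7.02 CPM at 18 months, so every old sample lay above every young one (log2 fold change 3.14, SE 0.334, edgeR adjusted p = 0.00829). Dlg2, a scaffold protein of membrane-associated signalling complexes, rose from 1.08 ± 0.225 to 6.34 ± 1.43 CPM (SD, n = 4 and n = 3, as for all mean levels here; log2 fold change 2.54, SE 0.244). Lgals2, a galectin, rose from 4.51 ± 0.891 to 14.4 ± 0.951 CPM, and Tlr1, a receptor for bacterial lipopeptides, from 1.35 ± 0.283 to 6.6 ± 0.277 CPM, with little spread at 18 months in both. On the lower side, H2afx, the histone variant that is phosphorylated around DNA breaks, was at 32.2, 39.7, 27.2 and 37 CPM at 2 months and 17.2, 16.3 and 15.5 CPM at 18 months, with no overlap (log2 fold change -1.06, SE 0.137, edgeR adjusted p = 0.00853). Zbed3, a zinc finger protein that binds axin, fell from 141 ± 33.9 to 49.5 ± 2.56 CPM, and Kcne3, a regulatory subunit of potassium channels, fell from 5.62 ± 1.02 to 1.42 ± 0.0884 CPM. Kif4, a chromosome-bound kinesin, was lower by a log2 fold change of -1.91 (SE 0.263). In fits that left out 1 sample, the highest adjusted p among the 16 genes taken for the smallest adjusted p was 0.0383, for Kif14 among others.

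**Figure D1:**
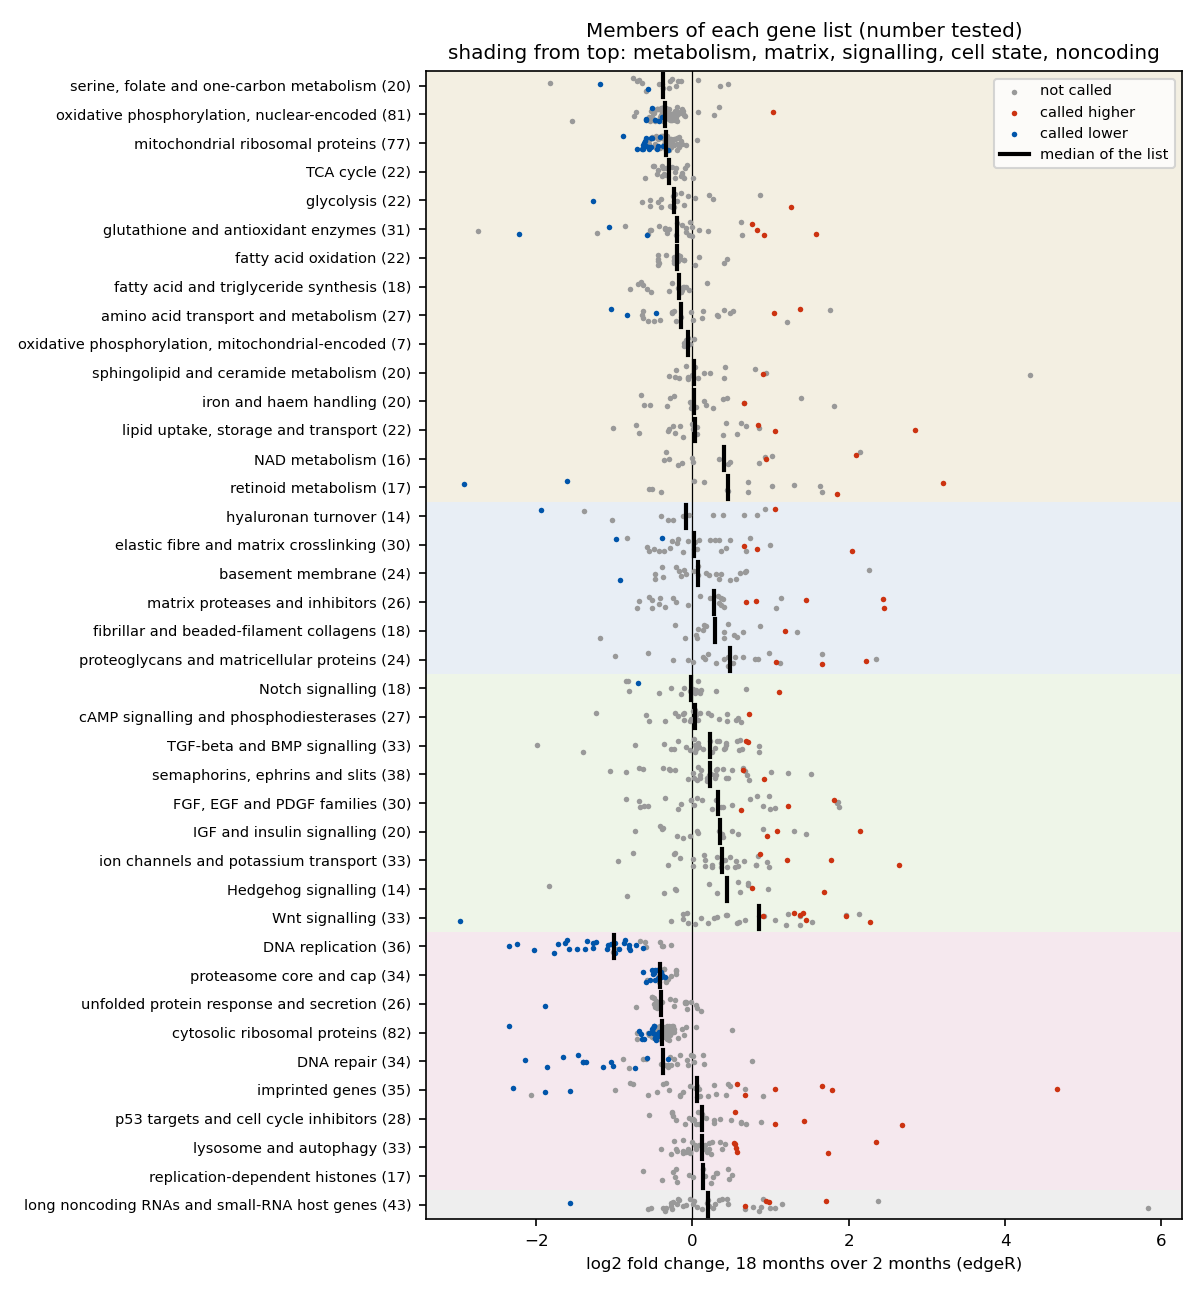
Each point is 1 tested gene of a list, placed by its log2 fold change of 18 over 2 months (x axis). Black bars mark list medians, and colour marks genes called at an edgeR adjusted p below 0.05. Among the lists plotted, which leave out cell type markers and the families added later, DNA replication has the lowest median (-1.01) and Wnt signalling the highest (0.85).

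Genes of DNA replication were lower in the old ovary. Of 36 tested, 27 were called lower and none higher, with a median log2 fold change of -1.01, where 5.51% of all genes were called lower and the median of all genes was 0.01. DNA is copied once per division: origins are licensed by loading the MCM2-7 helicase through ORC, Cdc6 and Cdt1, Cdc45 and GINS switch it on, and DNA polymerases with PCNA follow. Transcription of these genes is known to be driven by E2F factors when a cell enters the cycle. Uhrf1, which brings the maintenance methyltransferase to newly copied DNA, was at 89.6, 86.9, 56.1 and 63.8 CPM at 2 months and 17.9, 10.5 and 15.2 CPM at 18 months (log2 fold change -2.35, SE 0.320, edgeR adjusted p = 0.00948). The lowest young sample was over 3 times the highest old one. That methyltransferase, Dnmt1, fell from 209.9 ± 34.7 to 106 ± 15.3 CPM, and Cdc45 fell from 15.6 ± 4.21 to 4.58 ± 1.14 CPM. For Cdc45 the old samples were 5.88, 3.75 and 4.11 CPM and the lowest young sample, replicate 3, was at 10.9 CPM.

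Licensing factors and the helicase were all on the lower side. On the log2 scale Cdc6 fell by 2.24 (SE 0.447), Mcm10 by 2.02 (SE 0.430), Cdt1 by 1.27 (SE 0.221) and Mcm5 by 1.60 (SE 0.295). Mcm2, Mcm3, Mcm4 and Mcm6 were called too, whereas Mcm7, the other tested subunit, was not (log2 fold change -0.61, edgeR adjusted p = 0.0626). Of the enzymes that make the DNA building blocks, the ribonucleotide reductase subunits fell by 1.72 (Rrm2) and 0.80 (Rrm1). Tyms, thymidylate synthase, fell from 25.1 ± 5.92 to 11 ± 0.475 CPM and was called in every fit. The activating E2f1 and the repressive E2f8 fell by 1.63 and 1.57. Summed over the list, the young samples held 1708, 1662, 999 and 1287 CPM and the old ones 766, 658 and 674 CPM. The groups did not overlap, although young replicate 3 was closer to the old samples than the other three were. The count of members called lower was 2 without the summed 18 month sample, 5 without 18 month replicate 2 or 2 month replicate 1, 8 without 2 month replicate 2, 11 without 2 month replicate 4, 19 without 18 month replicate 1 and 34 without 2 month replicate 3, with medians between -1.16 and -0.92. Granulosa and oocyte markers, given above, were lower in the same samples, and their part in these values was not tested.

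Because the replication genes are textbook E2F targets, stretches of their promoters are shown here, for 4 genes called lower and for Prim1 (primase), which was not called. Capitals mark matches to the E2F letters TTCCCGC or TTGGCGC or their reverse complements GCGGGAA and GCGCCAA, and everything else is lower case. Sequences are RefSeq's, build GRCm38.p6, 5′ to 3′ on the gene's strand.
Uhrf1: gctttctcgcTTCCCGCcacagcgcca
Mcm5: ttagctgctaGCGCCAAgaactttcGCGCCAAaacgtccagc
Mcm3: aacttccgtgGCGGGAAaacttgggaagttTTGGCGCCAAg
Cdt1: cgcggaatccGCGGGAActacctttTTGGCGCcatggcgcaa
Prim1: gcctgtcttgTTCCCGCcaattctcgt
They lie at chr17:56303279-56303305, plus strand (Uhrf1), chr8:75109335-75109376, plus strand (Mcm5), chr1:20820263-20820303, minus strand (Mcm3), chr8:122568023-122568064, plus strand (Cdt1) and chr10:128015190-128015216, plus strand (Prim1). In Mcm3 the last marked run holds TTGGCGC and GCGCCAA overlapping each other. Windows of 300 bases, from 250 before to 50 after a start site, were available for 22 of the 27 called replication genes, and 12 of these 22 genes (54.5%) held a match in at least 1 window. Of the replication genes that were not called, 8 had a window and 6 of them (75%) held a match, so the letters were found in both sets. The share was 20.6% of 863 genes called lower, 7.47% of 830 called higher, 12.8% of the 13099 tested genes with a window and 7.79% of all 27025 genes in the table. For CCAAT or its complement ATTGG, which can overlap GCGCCAA, the shares were 63.6%, 75%, 45.8%, 37.1%, 41.8% and 41.1% in the same order. A match is only these letters in this window, and no binding was measured.

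DNA repair genes were called lower in 13 of 34 cases and higher in none, with a median of -0.38. Among all genes 5.51% were called lower. Brca1, which acts in homologous recombination, was at 33.7, 33.6, 16.6 and 24.9 CPM at 2 months and 8.58, 6.75 and 7.02 CPM at 18 months (log2 fold change -1.87, SE 0.313, edgeR adjusted p = 0.0134). No old sample reached the lowest young one. The checkpoint kinase Chek1 fell from 37.9 ± 7.38 to 8.63 ± 2.07 CPM. Both calls were lost when a single 18 month sample was left out, the summed one for Brca1 (adjusted p = 0.053) and replicate 2 for Chek1 (adjusted p = 0.0553). Counts of called members ranged from 1 without the summed sample to 17 without 2 month replicate 3. The replication-dependent histones, whose transcripts mostly lack poly(A) tails, had no called member among 17 tested. The most abundant, Hist1h1c, was at 85, 46.8, 83.7 and 63.3 CPM at 2 months and 116, 76.7 and 57.9 CPM at 18 months, with overlapping groups, and its fitted difference turned from 0.26 to -0.03 on the log2 scale without 18 month replicate 1.

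Genes of protein synthesis and protein upkeep were lower by small amounts over many members. The share of all genes called lower was 5.51%. Cytosolic ribosomal proteins form the 2 subunits of the ribosome, and 17 of 82 were called lower and none higher (median -0.39, with 80 of 82 fitted values below 0). Rpl28 was at 452, 475, 391 and 447 CPM at 2 months and 323, 323 and 277 CPM at 18 months (log2 fold change -0.52, SE 0.110, edgeR adjusted p = 0.0217). All old samples lay below all young ones. Rpl39l, a variant of Rpl39 known from germ cells, was at 0.552, 0.622, 0.447 and 0.578 CPM at 2 months and 0.142, 0.0946 and 0.0663 CPM at 18 months, all below 1 CPM (log2 fold change -2.34, SE 0.517, edgeR adjusted p = 0.0235). Ribosome biogenesis factors of the nucleolus, a list added after the values were seen, had 17 of 44 members lower and none higher. Ncl, nucleolin, was at 697, 713, 542 and 697 CPM at 2 months and 476, 467 and 381 CPM at 18 months (log2 fold change -0.59, SE 0.137, edgeR adjusted p = 0.0271). The 34 tested subunits of the proteasome, the protease that takes apart ubiquitin-tagged proteins, were all fitted below 0, and 16 were called (median -0.42). Psma2, a subunit of its core ring, fell from 170.2 ± 10.2 to 110.2 ± 21.7 CPM, and Psmd14, the deubiquitinase of its lid, fell from 89.4 ± 4.89 to 63.6 ± 6.63 CPM.

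Chaperones fold proteins as they leave the ribosome. For the counts that follow, 5.51% of all genes were called lower and 6.04% higher. Of 31 cytosolic heat shock chaperones and their partners, a list added after the values were seen, 15 were called lower and none higher (median -0.51). Hspa8, the constitutive Hsp70, was at 1482, 1083, 1159 and 1282 CPM at 2 months and 689, 607 and 494 CPM at 18 months (log2 fold change -1.07, SE 0.211, edgeR adjusted p = 0.0181). Hsp90aa1 fell from 532 ± 106 to 225 ± 32.6 CPM, and Hsph1, a nucleotide exchange factor of Hsp70, fell from 410.4 ± 90.4 to 129 ± 8.51 CPM, with old samples of 134, 135 and 119.6 CPM that lay close together. The stress-inducible Hspa1a, named after its values were seen, was uneven among the young samples, at 38.3, 4.2, 26.6 and 27.1 CPM at 2 months and 3.12, 3.69 and 2.58 CPM at 18 months, so that young replicate 2 was close to the old group. Hspa1a and Hspa1b are near-identical copies and their counts are uncertain. The CCT chaperonin, a ring that folds actin and tubulin and was likewise added after its values were seen, had 8 of 9 subunits lower (median -0.62). Cct2 fell from 397 ± 35.4 to 252 ± 33.4 CPM, Tcp1 fell from 221 ± 25.1 to 144 ± 16.2 CPM and Cct6a, listed in the table under a noncoding biotype although it encodes a subunit, fell from 219 ± 30.8 to 139 ± 12.7 CPM. Tubb5, a tubulin, was at 783, 793, 501 and 822 CPM at 2 months and 464, 441 and 388 CPM at 18 months (log2 fold change -0.75, SE 0.174, edgeR adjusted p = 0.0267). Of the 26 genes of the unfolded protein response and secretion only Derl3, a factor of endoplasmic reticulum degradation, was called, and it fell from 50.2 ± 11.5 to 13.5 ± 4.85 CPM. Immediate early genes, which respond quickly to stimuli, had 1 of 10 members called, higher, and overlapping sums of 366 to 1129 and 359 to 967 CPM.

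**Figure D2:**
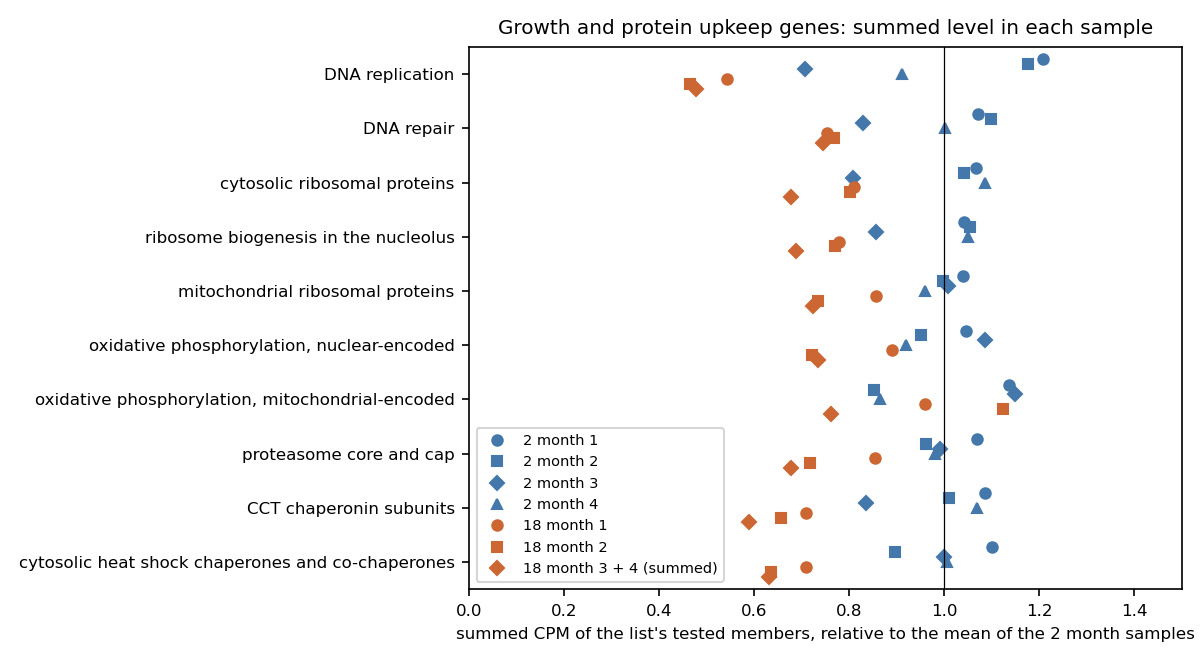
Summed CPM of the tested members of each list in every sample, divided by the mean of the 4 samples at 2 months (x axis). Blue marks are 2 month samples and orange marks 18 month samples. In DNA replication the old samples lie at 0.465 to 0.542 of the young mean, and in the mitochondrially encoded subunits the ages overlap.

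These counts depended strongly on single samples. Without the summed 18 month sample, 18 month replicate 2, 2 month replicate 1, 2 month replicate 2 or 2 month replicate 4, no proteasome subunit and no cytosolic ribosomal protein was called. Without 2 month replicate 3, which was the lowest young sample for the ribosomal sum, 59 ribosomal proteins were called, and without 18 month replicate 1, 22 proteasome subunits. The list medians kept their sign in all of these fits, at -0.50 to -0.34 for the proteasome, -0.49 to -0.31 for ribosomal proteins, -0.55 to -0.50 for the heat shock list and -0.71 to -0.54 for the chaperonin. The highest adjusted p over these fits was 0.0766 for Rpl28, 0.0961 for Psma2, 0.0701 for Hspa8, 0.0536 for Hsp90aa1, 0.0613 for Hsph1, 0.0954 for Ncl, 0.0976 for Tubb5 and 0.0555 for Derl3. Heat shock members called were 13 without 2 month replicate 3, 6 without 18 month replicate 2 or 2 month replicate 4, 3 without 2 month replicate 1 and 0 without the summed sample. Chaperonin subunits called were 8 without 2 month replicate 3, 7 without 18 month replicate 1 and 1 or 0 without any other sample.

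Mitochondrial genes encoded in the nucleus followed the same direction by similar amounts. Of 77 mitochondrial ribosomal proteins 19 were called lower and none higher (median -0.34, with 76 of 77 fitted values below 0). Mrpl39 was at 67.6, 63.6, 66.8 and 66.7 CPM at 2 months and 49.7, 41.5 and 37.4 CPM at 18 months, with very little spread among the young samples, and was called in every fit (log2 fold change -0.63, SE 0.103, edgeR adjusted p = 0.013). Mrps22 fell from 32.8 ± 3.45 to 20.0 ± 1.72 CPM and Mrpl21 from 32.4 ± 1.75 to 21.2 ± 2.2 CPM. Among the 81 nuclear-encoded subunits of the respiratory chain 6 were called lower and 1 higher, where 11.6% of all genes were called in either direction, and 77 of 81 fitted values were below 0 (median -0.35). Atp5o, a stalk subunit of ATP synthase, was at 31.8, 30.0, 27.7 and 27.7 CPM at 2 months and 21, 20.2 and 16.8 CPM at 18 months (log2 fold change -0.60, SE 0.115, edgeR adjusted p = 0.0165). Ndufb5, of complex I, fell from 68.7 ± 2.66 to 51.2 ± 5.45 CPM. The subunit that rose, Cox6b2, is known as the testis form of a cytochrome oxidase subunit, and it was at 8.41, 11.7, 7.8 and 6.33 CPM at 2 months and 14.1, 18.9 and 19.6 CPM at 18 months. The 7 tested subunits encoded by mitochondrial DNA had no call in either direction. Of these, mt-Co1, a core subunit of cytochrome oxidase, was at 14484, 10943, 14604 and 10950.0 CPM at 2 months and 12506, 13761 and 9144 CPM at 18 months, with overlapping groups, and its fitted difference of -0.11 turned to 0.04 on the log2 scale without the summed sample. Mitochondrial ribosomal proteins called lower were 21 without 18 month replicate 1, 18 without 2 month replicate 3, 3 without 2 month replicate 4 and 1 without any other sample, and respiratory subunits called lower ranged from 0 without the summed sample or 2 month replicate 1 to 17 without 18 month replicate 1. The highest adjusted p was 0.0639 for Mrps22, 0.0579 for Atp5o, 0.085 for Ndufb5 and 0.0882 for Cox6b2.

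Few genes were called in the central routes of fuel metabolism, where 11.6% of all genes were called in either direction. In lists as short as these, such counts are no result about the routes. None of 22 genes of the TCA cycle, 22 of fatty acid oxidation or 18 of fatty acid and triglyceride synthesis was called (medians -0.30, -0.19 and -0.18). Scd2, the most abundant gene of the last list and a desaturase, was at 3329, 3036, 3762 and 3113 CPM at 2 months and 2274, 1452 and 1997 CPM at 18 months. The groups did not overlap, but the test was not passed (log2 fold change -0.80, SE 0.248, edgeR adjusted p = 0.0651). Cpt1a, which admits fatty acids to mitochondria, and Ogdh, of the TCA cycle, had overlapping groups, and both were highest in young replicate 3, at 877 and 629 CPM. In glycolysis 2 of 22 genes were called, in opposite directions. Eno2, the enolase known from neurons, was at 4.62, 5.56, 4.75 and 7.18 CPM at 2 months and 14.5, 11.8 and 13.4 CPM at 18 months and was called in every fit (log2 fold change 1.26, SE 0.183, edgeR adjusted p = 0.0107). Hk2, the inducible hexokinase, fell from 60.5 ± 21.9 to 25.2 ± 3.78 CPM, again with its highest level in young replicate 3 (92.3 CPM). One-carbon metabolism, which supplies nucleotide synthesis, had 2 of 20 members lower, Tyms and Mthfd1. The calls of Hk2 and Mthfd1 were lost without any of several samples, 2 month replicates 1 and 4 and each 18 month sample among them, with adjusted p up to 0.088 and 0.0655.

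Enzymes that handle glutathione and oxidants moved both ways. Of 31, 4 were called higher and 3 lower, where 6.04% of all genes were called higher and 5.51% lower. Gstm1, a glutathione transferase, was at 321, 353, 296 and 290.1 CPM at 2 months and 438, 554 and 617 CPM at 18 months (log2 fold change 0.77, SE 0.148, edgeR adjusted p = 0.0168). Gsta3, a transferase that also acts in steroid synthesis, rose from 6.82 ± 1.92 to 20.4 ± 6.33 CPM. Gpx7, a peroxidase of the endoplasmic reticulum, fell from 55 ± 13.8 to 26.3 ± 4.06 CPM, young replicate 3 being the lowest of its group at 34.6 CPM against 60.0 to 65.1 CPM in the others. Among amino acid genes, Srm, spermidine synthase, was at 50.3, 62.2, 45.6 and 63.1 CPM at 2 months and 35.4, 30.0 and 27.2 CPM at 18 months (log2 fold change -0.84, SE 0.152, edgeR adjusted p = 0.0149) and Asns, asparagine synthetase, fell from 31.8 ± 6.46 to 15.4 ± 4.1 CPM. Slc7a2, a transporter of arginine and lysine, rose from 39.8 ± 9.65 to 81.8 ± 13.2 CPM. Leaving out the summed sample ended the call of Srm (adjusted p = 0.0577), and leaving out 2 month replicate 1, 2 month replicate 4 or 18 month replicate 2 ended those of Gstm1, Gsta3 and Slc7a2, whose highest adjusted p over all 7 fits that left out 1 sample was 0.0618, 0.0714 and 0.0604. For Gpx7 and Asns the highest values were 0.0899 and 0.0824.

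Of 22 genes of lipid uptake, storage and transport 3 were called higher and none lower (median 0.03), where 6.04% of all genes were called higher. Apoe, an apolipoprotein of lipid export from macrophages, was at 667, 756, 705 and 726 CPM at 2 months and 1592, 1091 and 1777 CPM at 18 months and was called in every fit (log2 fold change 1.06, SE 0.172, edgeR adjusted p = 0.0127). All old samples lay above all young ones, with replicate 2 the lowest of the 3. Abcg1, a cholesterol exporter, rose from 15 ± 1.31 to 26.9 ± 5.28 CPM. Fabp4, a fatty acid chaperone of adipocytes and macrophages, was at 2.55, 2.73, 1.75 and 2.1 CPM at 2 months and 12.5, 5.64 and 31.5 CPM at 18 months, an uneven rise in which the old samples differed from each other more than 5-fold (log2 fold change 2.84, SE 0.493, edgeR adjusted p = 0.0139). The macrophage and adipocyte sums given above were higher in the same samples, and their part in these 3 values was not tested. Fabp4 is itself a member of the adipocyte sum, with 31.5 of its 93.6 CPM in the summed sample. Of 16 NAD genes 2 rose, Aox1, an aldehyde oxidase, from 33.7 ± 2.71 to 64.8 ± 21.4 CPM, and Bst1, an ectoenzyme that uses NAD, from 0.835 ± 0.410 to 3.54 ± 2.08 CPM. Where 6.04% of all genes were called higher and 5.51% lower, the retinoid list had 2 of 17 genes called higher and 2 lower. Of these, Aldh1a3, which makes retinoic acid, was at 7.76, 8.11, 7.68 and 11.5 CPM at 2 months and 19.8, 39.5 and 35.1 CPM at 18 months and was called in every fit (log2 fold change 1.84, SE 0.232, edgeR adjusted p = 0.00829). Cyp26b1, which breaks retinoic acid down, was at 2.59, 3.01, 1.06 and 3.96 CPM at 2 months and 5.21, 17.7 and 51.5 CPM at 18 months, with old replicate 1 close to the young samples and the summed sample far above (log2 fold change 3.20, SE 0.664, edgeR adjusted p = 0.0209). Crabp1, a carrier of retinoic acid, fell from 0.747 ± 0.264 to 0.0967 ± 0.0847 CPM, and it had no count in old replicate 1. The calls of Bst1 and Crabp1 were lost in all 7 fits that left out 1 sample (adjusted p up to 0.147 and 0.105). Those of Cyp26b1 and Aox1 were lost without the summed sample or 2 month replicate 1, 2 or 4 (up to 0.0691 and 0.0825), and that of Abcg1 without any of these or 18 month replicate 2 (up to 0.0996). Cers4, a ceramide synthase, and Slc40a1, the iron exporter ferroportin, were the only calls of their lists of 20 and 20 genes, and rose from 28.2 ± 3.66 to 52.6 ± 11 CPM and from 68.3 ± 6.69 to 108 ± 20.6 CPM, with calls lost without the same samples as for Abcg1 (up to 0.076 and 0.0739).

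In each class of extracellular matrix genes 1 to 5 members were called. Collagens give tissue its tensile strength, small leucine-rich proteoglycans such as decorin coat and space collagen fibrils, and metalloproteinases and their TIMP inhibitors set how fast matrix is removed. Among 24 proteoglycans and matricellular genes 3 were called higher and none lower (median 0.48), where 6.04% of all genes were called higher. Dcn, decorin (ENSMUSG00000019929, chromosome 10, 97479609 to 97518143 in mm10), was at 240.0, 298, 190.1 and 210.3 CPM at 2 months and 656, 719 and 847 CPM at 18 months (log2 fold change 1.66, SE 0.218, edgeR adjusted p = 0.00895). Each old sample held over 2 times the CPM of any young one. Lum, lumican, was at 189, 175, 139 and 172 CPM at 2 months and 491, 284 and 289.8 CPM at 18 months (log2 fold change 1.07, SE 0.239, edgeR adjusted p = 0.0242), with old replicate 1 standing above the other old samples. Podn, podocan, was scarce but rose in every old sample, at 0.724, 0.466, 0.772 and 0.852 CPM at 2 months and 1.88, 5.45 and 2.45 CPM at 18 months (log2 fold change 2.21, SE 0.380, edgeR adjusted p = 0.0134). Dcn and Podn were called in every fit, whereas the call of Lum ended when 2 month replicate 1, 2 or 4, 18 month replicate 1 or the summed sample was left out (adjusted p up to 0.0648).

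Of 18 fibrillar and beaded-filament collagens 1 was called, where 11.6% of all genes were called in either direction. Col6a6, a collagen VI chain, was at 17.6, 25.4, 24.3 and 18.5 CPM at 2 months and 61.4, 31.5 and 53.4 CPM at 18 months (log2 fold change 1.18, SE 0.313, edgeR adjusted p = 0.0412), a call lost in each fit that left out 1 sample except that without 18 month replicate 2 (adjusted p up to 0.122). The main fibrillar collagens were chosen for description after their values were seen. Col1a1 was at 261, 353, 350.2 and 415 CPM at 2 months and 287, 838 and 502 CPM at 18 months, with old replicate 1 inside the range of the young samples and old replicate 2 far above it (edgeR adjusted p = 0.353). Col3a1, the most abundant collagen of the list, was at 1062, 977, 833 and 1244 CPM at 2 months and 775, 1152 and 959 CPM at 18 months, with full overlap (edgeR adjusted p = 0.885). In the basement membrane list of 24 genes, Lamc3, a laminin chain, was the only call, and it was lower: 77.6, 98.5, 88.3 and 106 CPM at 2 months and 51.8, 46.4 and 47.6 CPM at 18 months (log2 fold change -0.93, SE 0.140, edgeR adjusted p = 0.0117). It was called in every fit.

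Ltbp2, which binds fibrillin and helps to lay down elastic fibres, was at 23.2, 29.6, 30.5 and 36.6 CPM at 2 months and 111, 131 and 127 CPM at 18 months, and each old sample was over 3 times any young one (log2 fold change 2.04, SE 0.268, edgeR adjusted p = 0.00895). Of the 30 genes of elastic fibres and crosslinking 3 were called higher and 2 lower, where 6.04% of all genes were called higher and 5.51% lower. Emilin1, an elastin-bound glycoprotein, also rose, from 99.2 ± 7.42 to 175 ± 35.2 CPM, as did Tgm2, a transglutaminase (from 94.5 ± 5.49 to 149 ± 31.8 CPM). Fbn2, fibrillin 2, fell from 74.7 ± 19.4 to 37.8 ± 7.41 CPM, and Plod1, a lysyl hydroxylase of collagen, fell from 114 ± 3.97 to 87 ± 2.21 CPM. Cd44, the receptor for hyaluronan, was at 16.9, 15.3, 12.5 and 16 CPM at 2 months and 31.3, 31 and 32 CPM at 18 months, the old samples lying close together and the fit giving 1.05 on the log2 scale (SE 0.109). Hmmr, a hyaluronan-binding protein of the mitotic spindle, fell from 16.1 ± 4.26 to 4.2 ± 1.38 CPM, and the enzymes Has1, Has2 and Has3, which make hyaluronan, were not called. Cd44 and Ltbp2 were called in every fit. The calls of Emilin1, Plod1 and Hmmr were lost without 2 month replicate 1, 2 or 4, 18 month replicate 2 or the summed sample, and that of Plod1 also without 18 month replicate 1 (adjusted p up to 0.0945, 0.0742 and 0.0818).

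Of 26 matrix proteases and inhibitors tested, 5 were called higher and none lower (median 0.28), where 6.04% of all genes were called higher. Timp3, the matrix-bound inhibitor, was at 205, 191, 251 and 179 CPM at 2 months and 355, 336 and 308 CPM at 18 months (log2 fold change 0.69, SE 0.133, edgeR adjusted p = 0.0168), and Timp2 rose from 278 ± 28.7 to 487 ± 104 CPM. Mmp9, a gelatinase made by leukocytes among others, was at 3.69, 5.75, 4.47 and 6.15 CPM at 2 months and 37.9, 34.3 and 9.87 CPM at 18 months (log2 fold change 2.45, SE 0.488, edgeR adjusted p = 0.0185), with the summed sample well below the other old samples. Mmp12, the macrophage elastase, was called with groups that overlapped. The number called was 0 without 2 month replicate 1, 1 without 18 month replicate 2 or 2 month replicate 2, 2 without the summed sample or 2 month replicate 3, and 3 without 18 month replicate 1 or 2 month replicate 4. Macrophage markers were higher in the same samples, and their part was not tested.

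**Figure D3:**
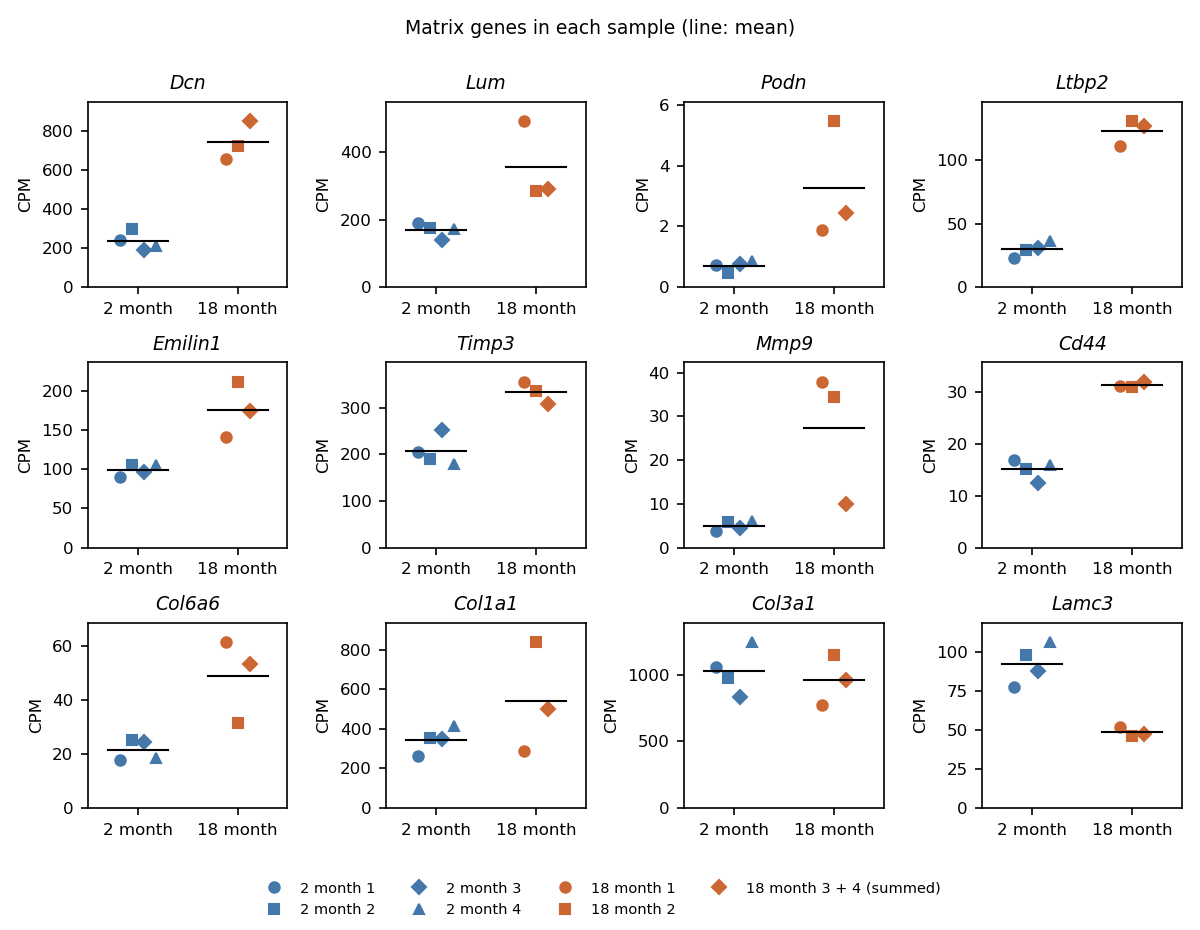
CPM of 12 matrix genes in each sample (y axes start at 0), with a black line at the mean of each age. Dcn, Ltbp2 and Cd44 separate the ages with little spread, Lamc3 separates them in the lower direction, and Col1a1 and Col3a1 overlap.

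Wnt signalling had the highest median among the lists of metabolism, matrix, signalling, cell state and noncoding genes. Wnt ligands bind Frizzled receptors and stabilise beta-catenin, R-spondins raise the signal by protecting those receptors, and Axin2 is both a target and an inhibitor of the route. In the ovary Rspo1 and Wnt4 are known for their part in female sex determination. Of 33 genes 7 were called higher and 1 lower (median 0.85), where 6.04% of all genes were called higher and 5.51% lower. The 3 called R-spondins moved in different directions. Rspo2, which oocytes are known to make, was at 10.7, 13.4, 5.0 and 9.59 CPM at 2 months and 1.84, 1.01 and 0.795 CPM at 18 months (log2 fold change -2.97, SE 0.450, edgeR adjusted p = 0.0117; chromosome 15, 43020794 to 43170826). Rspo3 went the other way, from 0.758, 1.06, 0.406 and 1.31 CPM to 2.94, 4.98 and 5.04 CPM (log2 fold change 2.27, SE 0.386, edgeR adjusted p = 0.0134). Rspo1 was at 11.3, 11.5, 14.9 and 11.6 CPM at 2 months and 24.6, 79.5 and 40.0 CPM at 18 months, with old replicate 1 at 24.6 CPM and old replicate 2 more than 3 times as high (log2 fold change 1.96, SE 0.416, edgeR adjusted p = 0.0222). Of the other called members, Wnt4 was at 83.7, 122, 86.7 and 168 CPM at 2 months and 212, 267 and 369.6 CPM at 18 months (log2 fold change 1.30, SE 0.284, edgeR adjusted p = 0.0234) and Axin2 at 23.2, 30.1, 18.6 and 28.8 CPM at 2 months and 35, 94.6 and 77.5 CPM at 18 months (log2 fold change 1.45, SE 0.310, edgeR adjusted p = 0.0226). Wnt2b and Wnt9a, both ligands, rose from 17.1 ± 2.16 to 45.6 ± 20.1 CPM and from 4.76 ± 0.645 to 12.4 ± 5.4 CPM, and Fzd1, a receptor, from 56 ± 18.3 to 105 ± 19.7 CPM.

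Old replicate 1 was the lowest old sample for all 7 of the members that rose, and it was also the lowest for the surface epithelium sum (395 CPM, against 1040.1 and 610.2 CPM). For Rspo1, Axin2, Wnt2b and Wnt9a old replicate 2 was the highest, as it was for that sum. Sums of smooth muscle and pericyte markers (1241.5, 2502.8 and 1320.5 CPM) and of fibrillar collagens had the same order. So had the oviduct and ciliated cell sum. The part of the epithelium or of other cells in these values was not tested. Rspo2 and Rspo3 were called in every fit. The members called higher were 10 without 18 month replicate 1, 6 without 2 month replicate 3, 3 without 2 month replicate 4 and 1 without 2 month replicate 1, 2 month replicate 2, 18 month replicate 2 or the summed sample, with medians of 0.56 to 0.93. For Rspo1 the highest adjusted p over these fits was 0.0716. Sfrp4, a secreted Wnt inhibitor and by far the most abundant gene of the list, was named for its level and varied widely within both ages, at 6604, 2362, 6281 and 3770.5 CPM at 2 months and 10432, 7019 and 1770.4 CPM at 18 months (edgeR adjusted p = 0.696).

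**Figure D4:**
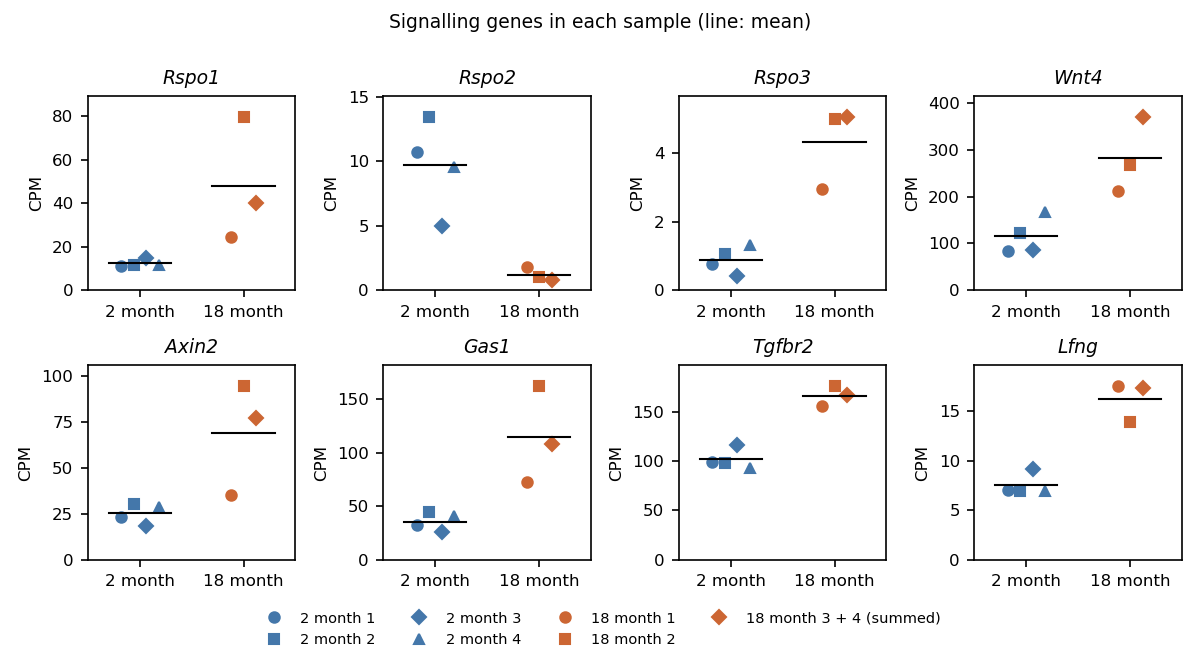
CPM of 8 signalling genes in each sample (y axes start at 0), with a black line at the mean of each age. Rspo2 is the gene that is lower at 18 months, and Rspo1 and Axin2 show old replicate 1 nearest to the young samples.

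Other signalling routes gave few calls. Higher levels were called for 2 of 33 TGF-beta and BMP genes, 2 of 14 Hedgehog, 3 of 20 IGF and insulin, 3 of 30 FGF, EGF and PDGF and 1 of 27 cAMP genes, and for 1 of 18 Notch genes beside 1 lower. With 6.04% of all genes called higher, these counts of single genes are no result about the routes. Tgfbr2, the receptor that binds the ligand, was at 99.6, 98.2, 117 and 93.6 CPM at 2 months and 156, 176 and 168 CPM at 18 months and was called in every fit (log2 fold change 0.71, SE 0.115, edgeR adjusted p = 0.0127), whereas Id2, a BMP target, was called with overlapping groups. Lfng, a glycosyltransferase that tunes Notch receptors, was at 7.07, 6.93, 9.18 and 6.97 CPM at 2 months and 17.5, 13.9 and 17.3 CPM at 18 months and was also called in every fit (log2 fold change 1.11, SE 0.160, edgeR adjusted p = 0.0106). Jag2, a Notch ligand, fell from 30.2 ± 3.71 to 18.7 ± 3.19 CPM. Gas1, a surface co-receptor for Hedgehog ligands, was at 32.1, 44.2, 25.5 and 40.8 CPM at 2 months and 72.5, 162 and 108 CPM at 18 months (log2 fold change 1.68, SE 0.287, edgeR adjusted p = 0.0137), and Boc, of the same kind, was called with overlapping groups. Among IGF genes, Igfbp4 and Igfbp6, which bind the growth factors in the extracellular space, rose from 361 ± 66.1 to 696 ± 77.5 CPM and from 58.5 ± 8.06 to 124 ± 31.7 CPM, and Pappa2, a protease that cleaves such binding proteins, rose from 0.354 ± 0.0963 to 1.6 ± 0.630 CPM. Fgf2 and its receptor Fgfr1 rose from 18.3 ± 3.92 to 42.7 ± 17.9 CPM and from 65.7 ± 4.63 to 101 ± 19.7 CPM. Fgf9 had young samples at 0.586, 0.777, 0.772 and 0.791 CPM and old ones at 0.815, 4.73 and 2.19 CPM, so old replicate 1 was next to the young group (log2 fold change 1.82, SE 0.512, edgeR adjusted p = 0.0485).

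Of 38 semaphorins, ephrins and slits 2 were called higher, which is no larger a share than among all genes, and of 33 ion channel genes 4, with none lower in either list. Slit3, a secreted guidance ligand, rose from 44.2 ± 7.31 to 83.1 ± 11.6 CPM, and Sema4d from 9.02 ± 1.19 to 14.1 ± 0.746 CPM. Scn7a, an atypical sodium channel, was at 18.5, 14.4, 12.7 and 15.3 CPM at 2 months and 39.7, 34.2 and 31.5 CPM at 18 months and was called in every fit (log2 fold change 1.21, SE 0.174, edgeR adjusted p = 0.0105). Kcnk2, a mechanically gated potassium channel, was at 12.9, 18.6, 12.2 and 18.9 CPM at 2 months and 23.3, 75.7 and 61.6 CPM at 18 months, and Cftr, the chloride channel of epithelia, at 4.55, 3.64, 3.41 and 3.14 CPM at 2 months and 7.72, 40.3 and 20.7 CPM at 18 months. The fits gave 1.77 (SE 0.393, edgeR adjusted p = 0.0245) and 2.64 (SE 0.641, edgeR adjusted p = 0.0318). In both, old replicate 1 was lowest and old replicate 2 highest, the order of the epithelial sum. The sums of oviduct and ciliated cell markers, smooth muscle and pericyte markers and fibrillar collagens had that order too. Podxl, a sialomucin of mesothelium and endothelium and 1 of the 5 genes with the greatest gain in CPM among called genes without overlap, showed that order too, at 92.9, 91.8, 122 and 69.2 CPM at 2 months and 160.2, 723 and 295 CPM at 18 months (log2 fold change 2.06, SE 0.463, edgeR adjusted p = 0.0251). Pde3a, a phosphodiesterase that breaks down cAMP, rose from 21.5 ± 2.5 to 35.4 ± 7.17 CPM. Markers of nerve and glia had 1 of 10 members called higher and 2 lower, and their sums overlapped, at 267 to 391 CPM and 235 to 310 CPM. Dbh and Sox10 of that list were among the genes too low to be tested. Except for Tgfbr2, Lfng and Scn7a, the called genes of these routes lost their call in at least 1 fit, Gas1 without 2 month replicate 1 (adjusted p = 0.0505) and most others without 2 month replicate 1, 2 or 4, 18 month replicate 2 or the summed sample, with adjusted p up to 0.21 for Fgf9.

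Genes of cell cycle arrest, lysosomes and imprinting gave smaller sets. Of 28 p53 targets and cell cycle inhibitors 4 were called higher and none lower, where 6.04% of all genes were called higher. Cdkn2a, the locus of p16 and p19 and a common marker of senescent cells, was at 1.38, 0.870, 0.365 and 0.791 CPM at 2 months and 7.65, 6.24 and 2.58 CPM at 18 months (log2 fold change 2.68, SE 0.522, edgeR adjusted p = 0.0173), with every old sample above the young ones and the summed sample the lowest of them. Pmaip1, a pro-apoptotic p53 target, rose from 0.892 ± 0.328 to 2.4 ± 0.257 CPM, and Sesn1, another p53 target, from 81.8 ± 11.6 to 119 ± 14.4 CPM. The count was 4 without 2 month replicate 3, 2 without 18 month replicate 1 or the summed sample, 1 without 2 month replicate 1 and 0 without 18 month replicate 2, 2 month replicate 2 or 2 month replicate 4, where Cdkn2a had adjusted p up to 0.0537. In the lysosome and autophagy list 6 of 33 were called higher and none lower, beside the same 6.04% of all genes. Gabarapl1, which marks autophagosomes, was at 111, 101, 126 and 103 CPM at 2 months and 159, 175 and 159.5 CPM at 18 months and was called in every fit (log2 fold change 0.57, SE 0.0992, edgeR adjusted p = 0.0137). Ctss, a cathepsin of antigen-presenting cells, was at 33.1, 37.4, 43.7 and 53.3 CPM at 2 months and 177, 65.3 and 178 CPM at 18 months, with old replicate 2 closest to the young samples (log2 fold change 1.74, SE 0.336, edgeR adjusted p = 0.0174), and Ctsh rose from 91.9 ± 4.08 to 134 ± 15 CPM. The number of lysosomal calls was 1 without 2 month replicate 1 and 2 when the summed sample or 2 month replicate 2 was left out, where Ctss was no longer called (adjusted p up to 0.0652). Macrophage markers were higher in the same samples, and their part was not tested. Selenop, the carrier of selenium in plasma, was also among the 5 genes with the greatest gain in CPM of those called without overlap, from 407 ± 38.6 to 682 ± 33.6 CPM.

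Imprinted genes, which are expressed from 1 parental copy, were called in both directions, 6 of 35 higher and 3 lower (median 0.06). Among all genes 6.04% were called higher and 5.51% lower. Besides Dcn, Impact, a regulator of translation, was at 42.6, 46.8, 42 and 49.6 CPM at 2 months and 65.1, 63.9 and 72.3 CPM at 18 months and was called in every fit (log2 fold change 0.57, SE 0.0932, edgeR adjusted p = 0.0128). Nnat, a small membrane protein, was at 66.6, 101, 44.3 and 88 CPM at 2 months and 10.4, 22.4 and 12.9 CPM at 18 months (log2 fold change -2.29, SE 0.364, edgeR adjusted p = 0.0127), its old levels well apart from the young ones. H19, a long noncoding RNA of the fetal growth locus, was at 38, 31.3, 17.4 and 24.4 CPM at 2 months and 5.95, 14.8 and 7.36 CPM at 18 months (log2 fold change -1.56, SE 0.371, edgeR adjusted p = 0.0293). Cdkn1c, an inhibitor of cyclin-dependent kinases, rose from 6.03 ± 1.78 to 12.5 ± 2.68 CPM. Without the summed sample no imprinted gene was called lower and 2 were called higher (Nnat: adjusted p = 0.0502), and without 2 month replicate 3, 5 were called lower.

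Hox genes set position along the body axis in the embryo and stay on in adult stroma, and this family was counted after its values were seen. Of 29 tested, 9 were called higher and none lower (median 0.99), where 6.04% of all genes were called higher. The most abundant called members were Hoxd9 (from 26.3 ± 7.46 to 61.7 ± 24.1 CPM), Hoxd8 (from 29.7 ± 7.17 to 49.7 ± 4.14 CPM) and Hoxc4 (from 13.3 ± 2.89 to 25.8 ± 6.29 CPM). Hoxc4 was at 11, 16.3, 10.7 and 15.4 CPM at 2 months and 19.3, 26.2 and 31.9 CPM at 18 months, with old replicate 1 the lowest old sample (log2 fold change 0.95, SE 0.201, edgeR adjusted p = 0.0217). Calls numbered 10 without 18 month replicate 1, 5 without 2 month replicate 2 or 3, 2 without 18 month replicate 2, 1 without 2 month replicate 1 or 4 and 0 without the summed sample.

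Of 2260 tested genes with a noncoding biotype label, 120 were called higher and 47 lower at 18 months, which is 7.39% of them. The label is not always right: Cct6a, which encodes a protein, is among the 47. Of 15659 protein-coding genes 1016 were called higher and 1031 lower, which is 13.1%. The difference between the 2 shares was not tested, and noncoding genes were lower in level. The libraries were made from polyadenylated RNA by a stranded kit, but the strand setting of the counting is not given in the sources used here, so reads of an antisense gene and its partner cannot be told apart with certainty. Of 785 genes labelled antisense 38 were called higher and 4 lower, and of 822 labelled lincRNA 51 and 37. Among the 120 higher noncoding genes 81 had a protein-coding gene within 5000 bases, 54 of them overlapping it, and that neighbour was itself called higher in 31 of the 81 (38.3%) and lower in 1. For noncoding genes that were not called the neighbour was called higher in 4.94% of 1618. Of the 47 lower ones only 14 had such a neighbour, 2 of which were lower too. Where several protein-coding genes overlapped or lay equally near, the one with the smallest p was taken as the neighbour. That choice favours called neighbours, so all of these shares may be too high. Examples in which a noncoding gene and its neighbour both rose were A430027H14Rik with Kcnk2, Hoxd3os1 with Hoxd8, Airn with Mas1 and A330023F24Rik with Cd46, named after their values were seen.

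Among noncoding genes with a mean of at least 1 CPM at either age, the 5 called higher with the smallest adjusted p were called in every fit, and 3 of these are given here. Gm28876 was at 0.345, 0.466, 0.325 and 0.457 CPM at 2 months and 1.7, 2.59 and 3.38 CPM at 18 months (log2 fold change 2.65, SE 0.353, edgeR adjusted p = 0.00895), so each old sample held over 3 times the CPM of any young one. Mirt1 rose from 0.186 ± 0.0398 to 1.07 ± 0.121 CPM and Gm13003 from 0.479 ± 0.231 to 3.09 ± 1.06 CPM. Of the lower genes at that level Gm42980 had the smallest adjusted p and was called in every fit too, at 1.48, 1.65, 0.731 and 1.07 CPM at 2 months and 0.283, 0.284 and 0.331 CPM at 18 months (log2 fold change -2.04, SE 0.349, edgeR adjusted p = 0.0134). 4933427D06Rik, Gm1965 and Gm10857 fell by 3.62, 2.68 and 2.97 on the log2 scale, young replicate 3 being their lowest young sample, and these calls were lost without the summed sample, 2 month replicate 1 and, for the first and the second, other samples as well (adjusted p up to 0.067, 0.077 and 0.0577). In the list of known long noncoding RNAs and host genes 4 of 43 were called higher and 1 lower. That is 11.6% of its members, the same share as among all genes tested. The other members were not called. Malat1, for one, was at 2075, 1862, 2577 and 2029 CPM at 2 months and 2426, 2309.5 and 1749.9 CPM at 18 months, with overlapping groups (edgeR adjusted p = 0.958), and was named after its value was seen.

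Several of the called noncoding genes span microRNA hairpins on their own strand, and the mature sequences are printed to show which seeds these host genes share. A microRNA pairs with its targets through its seed, bases 2 to 8, given here in capitals. Mature microRNAs were not measured, and a host gene's level does not give theirs. Sequences are RefSeq's mature forms, build GRCm38.p6, 5′ to 3′.
miR-29b-3p: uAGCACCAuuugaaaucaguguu
miR-29c-3p: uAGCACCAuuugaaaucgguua
let-7c-5p: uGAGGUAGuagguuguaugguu
let-7d-5p: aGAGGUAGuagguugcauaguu
miR-125b-5p: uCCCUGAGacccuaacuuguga
miR-99a-5p: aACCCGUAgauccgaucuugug
miR-100-5p: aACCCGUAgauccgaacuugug
miR-200b-3p: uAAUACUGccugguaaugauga
miR-429-3p: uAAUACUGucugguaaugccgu
miR-142a-3p: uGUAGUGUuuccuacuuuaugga
miR-675-5p: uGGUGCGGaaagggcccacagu
The miR-29b and miR-29c forms share the seed AGCACCA and lie at chr1:195037091-195037113 and chr1:195037600-195037621, on the plus strand within A330023F24Rik. Collagen transcripts are textbook targets of this seed. A330023F24Rik (chromosome 1, 194976375 to 195037904) was at 2.69, 3.88, 5.0 and 3.01 CPM at 2 months and 10.8, 15.5 and 16.2 CPM at 18 months (log2 fold change 1.96, SE 0.299, edgeR adjusted p = 0.0117), and it was called in every fit. All old samples lay at least 2 times above the highest young sample.

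The let-7, miR-125b and miR-99/100 families occur together in 2 of the called host genes. Mir99ahg spans miR-99a, let-7c and a copy of miR-125b and was at 6.83, 4.69, 5.32 and 5.17 CPM at 2 months and 11, 12.1 and 9.41 CPM at 18 months (log2 fold change 0.98, SE 0.191, edgeR adjusted p = 0.0176). The other, 3110039I08Rik, spans miR-100, let-7a-2 and the other copy of miR-125b, and was at 12.9, 17.1, 13 and 15.2 CPM at 2 months and 20.8, 31.5 and 29 CPM at 18 months (log2 fold change 0.90, SE 0.202, edgeR adjusted p = 0.0249). Both genes carry the seeds CCCUGAG and ACCCGUA and were higher in all old samples. Hosts were looked up among called noncoding genes only. Other hosts of these seeds that were not called would not appear here. A further let-7 host, 6720427I07Rik, which spans let-7d, rose from 7.19 ± 0.817 to 11.9 ± 2.62 CPM. The shared seed of let-7c and let-7d is GAGGUAG.

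Dio3os, which spans miR-1247 and lies beside the thyroid hormone inactivating gene Dio3, was at 2.1, 2.58, 3.9 and 2.4 CPM at 2 months and 11.8, 7.88 and 20.4 CPM at 18 months and was called in every fit (log2 fold change 2.28, SE 0.330, edgeR adjusted p = 0.0107). Dio3 itself was at 2.65, 4.35, 5.24 and 3.47 CPM at 2 months and 7.19, 4.29 and 13.4 CPM at 18 months, with overlapping groups, and was not called (edgeR adjusted p = 0.0929). Mir142hg, the host of the leukocyte miR-142a, was at 0.310, 0.249, 0.244 and 0.274 CPM at 2 months and 1.28, 0.599 and 0.795 CPM at 18 months (log2 fold change 1.71, SE 0.319, edgeR adjusted p = 0.0155), and macrophage and lymphocyte markers were higher in the same samples. Gm13648, which spans miR-200b, miR-200a and miR-429, of which the first and last share the seed AAUACUG and which are known from epithelia, was at 0.103, 0, 0.0812 and 0.152 CPM at 2 months and 0.532, 1.8 and 2.32 CPM at 18 months (log2 fold change 4.12, SE 0.839, edgeR adjusted p = 0.02), with old replicate 1 the lowest old sample as for the epithelial markers. The part of these cell types was not tested. E130102H24Rik, which spans miR-101a, rose from 5.84 ± 0.643 to 11.1 ± 1.95 CPM. H19, described above, is the only called host in the lower direction and spans miR-675. Of the hosts chosen by rule, Mir142hg lost its call without 2 month replicate 1 (adjusted p = 0.0505), Mir99ahg without 18 month replicate 2 or 2 month replicate 2 or 4 (up to 0.0603) and H19 in 5 of the 7 fits that left out 1 sample, those without 18 month replicate 1, the summed sample, and 2 month replicates 1, 2 and 4 (up to 0.106).

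**Figure D5:**
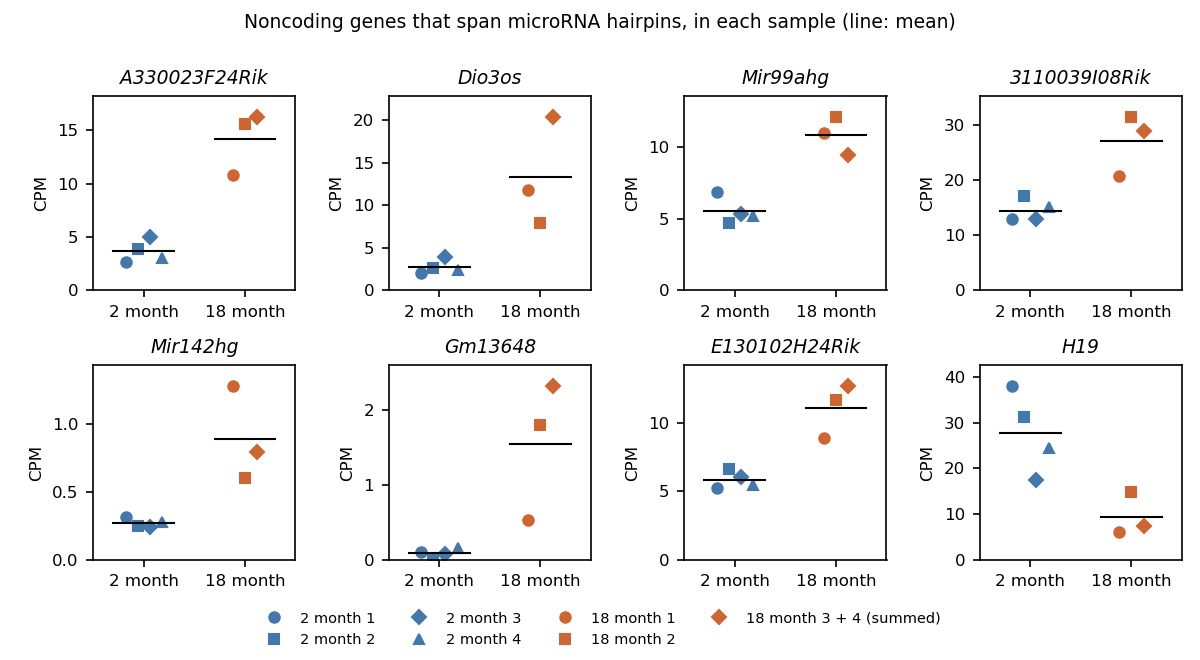
CPM of 8 noncoding genes that span microRNA hairpins in each sample (y axes start at 0), with a black line at the mean of each age. In 7 of them every 18 month sample lies above every 2 month sample, and H19 lies below.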

How the data were processed

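Per the labels' protocols, ovary RNA was isolated with Trizol, cleaned on columns with DNase digestion and made into stranded mRNA libraries. The authors deposited raw read counts per gene for each library. The submitters' processing notes name HTSeq, STAR, cutadapt and FastQC, and the build mm10. Versions, annotation and strand setting: not given in the sources used here.

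Counts of 18 month replicates 3 and 4 were summed. Of 54232 genes, 16474 had no count, and edgeR's filterByExpr (minimum count 10) kept 20331. The 3 ages (4, 3 and 3 samples) were fitted in 1 model with TMM factors and edgeR's robust quasi-likelihood F-test (edgeR 4.0.16, R 4.3.3), two-sided, with p-values adjusted by Benjamini-Hochberg and a threshold of 0.05. Residual degrees of freedom were 7, and the common dispersion corresponded to a coefficient of variation of 0.32. The SE is the size of the log2 fold change over the square root of F, and CPM use TMM factors. The code was tested on simulated data.

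The members and gene lists were chosen with earlier results of these data known. Genes were named by rule: among called genes of at least 2-fold change, 5 CPM and no overlap, the 8 higher and 8 lower of smallest adjusted p; 3 called members of each list (the most abundant where none was called); 5 noncoding genes of at least 1 CPM in each direction; and the 5 called genes without overlap with the greatest gain or loss in CPM. Others were named after their values were seen, and some genes that the rule names are not reported here. An identifier that repeats the symbol Aldoa was left out of its list. Alternatives were other scalings and filters, DESeq2 1.42.0, limma-voom (limma 3.58.1), only the ages compared, 11 separate libraries, a replicate block and leaving out each sample. Counts per list under each alternative and 5 gene families were added after seeing the data.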

Additional observations from a re-analysis of the deposited data

Results flagged for a closer look

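Of the 121 named genes, 12 had a 2 month sample that stood far from the other three by Dixon's criterion for outliers, which sets the gap to the nearest sample against the range of the group. Chance gives such a gap in about 1 of 20 groups, and groups of 3 were not tested. In 8 of the 12 the sample was replicate 3. It was the lowest young sample for Gpx7 (34.6 CPM, others up to 65.1), Mthfd1 (66.6, up to 87.9), 4933427D06Rik (0.812, up to 3.73), Ncl (542, up to 713) and Tubb5 (501, up to 822). It was the highest for Ogdh (629 CPM, lowest 342), Lfng (9.18, lowest 6.93) and Rspo1 (14.9, lowest 11.3). Replicate 1 stood apart for Psma1 (125 CPM, lowest 106), Ndufb5 (72.6, lowest 66.9) and Fgf9 (0.586, highest 0.791), and replicate 4 for Aldh1a3 (11.5 CPM, lowest 7.68). The 18 month and 2 month samples did not overlap in 11 of these genes, and in Ogdh they did. Groups did not overlap in 27.3% of all tested genes and in 2298 of the 2349 called ones.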

How the results depend on the processing

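The count of genes called higher (1228) was 2113 with DESeq2, 1988 with 11 separate libraries, 581 with the replicate number as a block and 220 to 1169 when 1 sample was left out. The count called lower (1121) was 662 with library totals, 1939 with DESeq2 (which gave no adjusted p for 51 genes), 1749 with limma-voom, 2012 with 11 separate libraries, 453 with the replicate block and 108 to 1442 when 1 sample was left out. Same-numbered samples of the 2 ages correlated at 0.0628, -0.0538 and -0.0517 in their deviations from the age means. Differently numbered samples gave -0.175 to 0.236. So few values cannot settle whether the numbers pair samples. The other scaling and filters stayed within 1.5 times. With only the 2 and 18 month samples 2597 genes were called, 2024 of them among the 2349 of the main fit. Of 1934 values of named genes under an alternative, 1542 kept direction and call, 384 lost the call, 4 gained it and 4 changed sign: Hist1h1c (-0.0303 without 18 month replicate 1, with 1 sample left out -0.0303 to 0.465), mt-Co1 (0.0439 without the summed sample, -0.236 to 0.0439) and Ogdh (0.0413 with limma-voom, and 0.108 without 2 month replicate 3, -0.208 to 0.108), none of them called. With library totals the medians of Notch, hyaluronan and mitochondrially encoded respiratory genes changed sign, to 0.06, 0.01 and 0.04. With 3 old samples, 1 of them of lower depth, differences of genes of few counts are the least certain.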

Other observations

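Some regulators outside the gene lists also changed, and are given here as values, named after these were seen. Ddr2, a receptor for fibrillar collagen, was at 107, 116, 115 and 129.9 CPM at 2 months and 196, 224 and 217 CPM at 18 months (log2 fold change 0.86, SE 0.113, edgeR adjusted p = 0.00895). Esr1, the estrogen receptor of stroma and theca, rose from 48.1 ± 9.03 to 98.3 ± 24 CPM, and Nr3c1, the glucocorticoid receptor, from 79.2 ± 7.03 to 121 ± 14.1 CPM. The homeobox genes Meis1 and Lhx9 rose from 13.9 ± 2.02 to 35.3 ± 8.64 CPM and from 15.2 ± 1.79 to 43.4 ± 19.5 CPM. Foxo1, a transcription factor of granulosa cells restrained by insulin signalling, fell from 304 ± 20.2 to 175 ± 28 CPM. Pparg and Angptl4, a nuclear receptor of lipid metabolism and an inhibitor of lipoprotein lipase, fell from 52.2 ± 6.03 to 31.3 ± 5.8 CPM and from 153 ± 18.2 to 83.6 ± 17.1 CPM. Ezh2, the methyltransferase of histone H3, fell from 43.5 ± 7.81 to 22.6 ± 2.73 CPM. Cirbp, a cold-inducible RNA-binding protein, was at 39.6, 45.3, 39.2 and 44.5 CPM at 2 months and 70.0, 70.8 and 80.0 CPM at 18 months (log2 fold change 0.80, SE 0.147, edgeR adjusted p = 0.0154), while Rbm3, of the same family, was not called (log2 fold change -0.59, edgeR adjusted p = 0.0584).

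A few genes were nearly undetected at 2 months and present in every old sample. Chodl, a membrane lectin, was at 0.172, 0.186, 0.162 and 0.0304 CPM at 2 months and 13, 18.5 and 5.24 CPM at 18 months. Mal2, a protein of epithelial membrane traffic, was at 0.103, 0.218, 0.0812 and 0.0913 CPM at 2 months and 2.3, 36.8 and 7.49 CPM at 18 months, and Lrrtm1, a synaptic adhesion protein, at 0.0345, 0, 0 and 0.0304 CPM at 2 months and 1.03, 25.2 and 5.17 CPM at 18 months. The lincRNA Gm42743 was at 0, 0, 0.0812 and 0 CPM at 2 months and 10.5, 4.79 and 1.72 CPM at 18 months. Old replicate 2 was the highest for Chodl, Mal2 and Lrrtm1, and old replicate 1 for Gm42743.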
